A study of Mus musculus with 5 samples.

Results

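Smarca4 peaks were described around 8 neural ectoderm marker genes, Nes, Sox1, Pax6, Pax3, Neurog2, Hes5, Zic1 and Olig2, in differentiating mouse embryonic stem cells (mESCs). A peak belonged to a gene if it overlapped the gene body or the 10 kb on either side of it, in the GENCODE annotation vM21 of mm10. This took 46 of the 78911 peaks in the 4 deposited lists, and every gene of the 8 held at least 1 of them. A peak of any list was also held by 67.0% of all protein-coding genes and by 87.0% of those of like window length and GC content. All mesoderm and endoderm genes set beside them below held a peak too.

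The BAF complex slides and evicts nucleosomes, with Smarca4 as its ATPase motor and Smarcc1 as part of its structural core. The neural ectoderm is the part of the early embryo that gives rise to the brain and spinal cord. Its cells switch on transcription factors of the Sox, Pax, Zic and basic helix-loop-helix families, and Notch signalling keeps part of them as progenitors. In mESCs such genes are mostly silent or lowly expressed, and some are induced as the cells leave pluripotency.

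Libraries were made from female mESCs with the Smarcc1 hairpin (Smarcc1.6), female mESCs with the non-silencing hairpin (Nons), male mESCs with the Smarcc1 hairpin and male mESCs with the Nons hairpin, and 1 library was an input. All cells carried the strain label C57/Bl6, were weaned out of 2i medium, received a hairpin and were fixed at day 4, and, per the study's methods, carried X-linked fluorescent reporter alleles. The study used the comparison to ask where Smarca4 is bound in each sex while the X chromosome is being inactivated, and whether this depends on Smarcc1. Only 1 hairpin against Smarcc1 and 1 library per group were profiled, so no difference between groups has a replicate check, and an effect of the hairpin cannot be told apart from a difference between libraries. Expression was not measured by this assay, so neither the knockdown nor the state of the neural genes was checked here.

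The lists held 2781 peaks in the female knockdown, 21289 in female Nons, 16740 in the male knockdown and 38101 in male Nons. Reads were recovered from the deposited scaled values, and 1 read was worth 16.7, 8.60, 7.03 and 4.59 scaled units in that order of libraries. Depth was therefore 5.99%, 11.6%, 14.2% and 21.8% of that of the input. The median peak held only 5, 7, 8 and 9 reads in the library that called it. A library at a low depth can miss a region that it binds, and intervals given here are 95% intervals that cover counting error only. Every peak was chosen for a high value in the library that called it, so its reads across libraries are descriptions.

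Sequences are shown for the peaks nearest to a start site that carry the results on Pax6, Pax3, Sox1 and Hes5, for the region beside Hes5 called in both sexes, and for the Zic1 peak with the most reads. Each is the stretch of the peak outside every annotated exon, at most its central 300 bases, from GRCm38, printed 5′ to 3′ on the strand of the gene. Capitals mark matches to a Sox motif (ACAATG) or a GC box (GGGCGG) on either strand, and no match to an Rbpj motif (GTGGGAA) or an octamer (ATGCAAAT) was in them. The Pax6 stretch is chr2:105681451-105681711 (plus strand), the Pax3 stretch chr1:78197135-78197250 (minus strand) and the Sox1 stretch chr8:12394801-12395100 (plus strand). The Hes5 upstream stretch is chr4:154960351-154960650, the shared Hes5 stretch chr4:154968451-154968750 (both plus strand) and the Zic1 stretch chr9:91361982-91362281 (minus strand).
Pax6, male Nons peak: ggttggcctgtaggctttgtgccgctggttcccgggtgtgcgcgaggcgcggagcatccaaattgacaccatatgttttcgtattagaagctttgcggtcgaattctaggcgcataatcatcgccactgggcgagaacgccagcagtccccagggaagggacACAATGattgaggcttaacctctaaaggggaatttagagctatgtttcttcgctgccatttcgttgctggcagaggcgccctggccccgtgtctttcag
Pax3, female Nons peak: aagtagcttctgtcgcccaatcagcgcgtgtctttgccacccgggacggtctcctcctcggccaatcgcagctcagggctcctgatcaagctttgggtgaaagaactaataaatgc
Sox1, male knockdown peak: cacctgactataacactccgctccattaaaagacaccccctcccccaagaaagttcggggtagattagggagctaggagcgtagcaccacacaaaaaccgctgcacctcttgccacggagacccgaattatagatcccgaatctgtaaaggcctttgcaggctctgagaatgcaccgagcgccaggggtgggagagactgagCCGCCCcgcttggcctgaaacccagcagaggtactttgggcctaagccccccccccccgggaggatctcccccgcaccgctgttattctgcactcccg
Hes5 upstream, male Nons peak: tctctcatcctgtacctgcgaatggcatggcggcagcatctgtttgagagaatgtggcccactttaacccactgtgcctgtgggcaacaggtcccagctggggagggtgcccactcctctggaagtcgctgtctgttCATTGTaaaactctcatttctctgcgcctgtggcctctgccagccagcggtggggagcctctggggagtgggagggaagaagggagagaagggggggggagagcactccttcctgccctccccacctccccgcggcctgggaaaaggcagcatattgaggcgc
Hes5 shared, female Nons peak: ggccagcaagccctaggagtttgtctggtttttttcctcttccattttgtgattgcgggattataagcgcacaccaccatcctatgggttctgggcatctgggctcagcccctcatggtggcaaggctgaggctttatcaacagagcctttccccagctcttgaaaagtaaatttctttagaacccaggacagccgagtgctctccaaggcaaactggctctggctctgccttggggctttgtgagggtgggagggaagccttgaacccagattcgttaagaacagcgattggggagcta
Zic1, male knockdown peak: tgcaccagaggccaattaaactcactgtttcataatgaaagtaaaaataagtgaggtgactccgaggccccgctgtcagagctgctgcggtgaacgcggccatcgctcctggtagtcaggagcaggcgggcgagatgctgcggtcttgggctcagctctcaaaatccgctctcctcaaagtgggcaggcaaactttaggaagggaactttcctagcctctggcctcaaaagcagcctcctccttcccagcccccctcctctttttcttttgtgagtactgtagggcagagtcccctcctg

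The female knockdown list held a peak at 2 of the 8 genes (Pax3 and Hes5), female Nons at 4 (Nes, Pax3, Hes5 and Olig2), the male knockdown at 7 (all but Neurog2) and male Nons at all 8. The same windows around all 21755 protein-coding genes held a peak in 10.8%, 42.7%, 39.8% and 55.8% of genes in that order. The numbers of peaks around the 8 genes were 2 in the female knockdown (exact Poisson interval 0.242 to 7.22), 8 in female Nons (3.45 to 15.8), 17 in the male knockdown (9.90 to 27.2) and 19 in male Nons (11.4 to 29.7). Hes5 had the most peaks (10), followed by Pax6 (9) and Nes (8), and Neurog2 had 1. The list of the male knockdown was shorter than that of female Nons, yet around these genes it held more peaks.

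**Figure D1:**
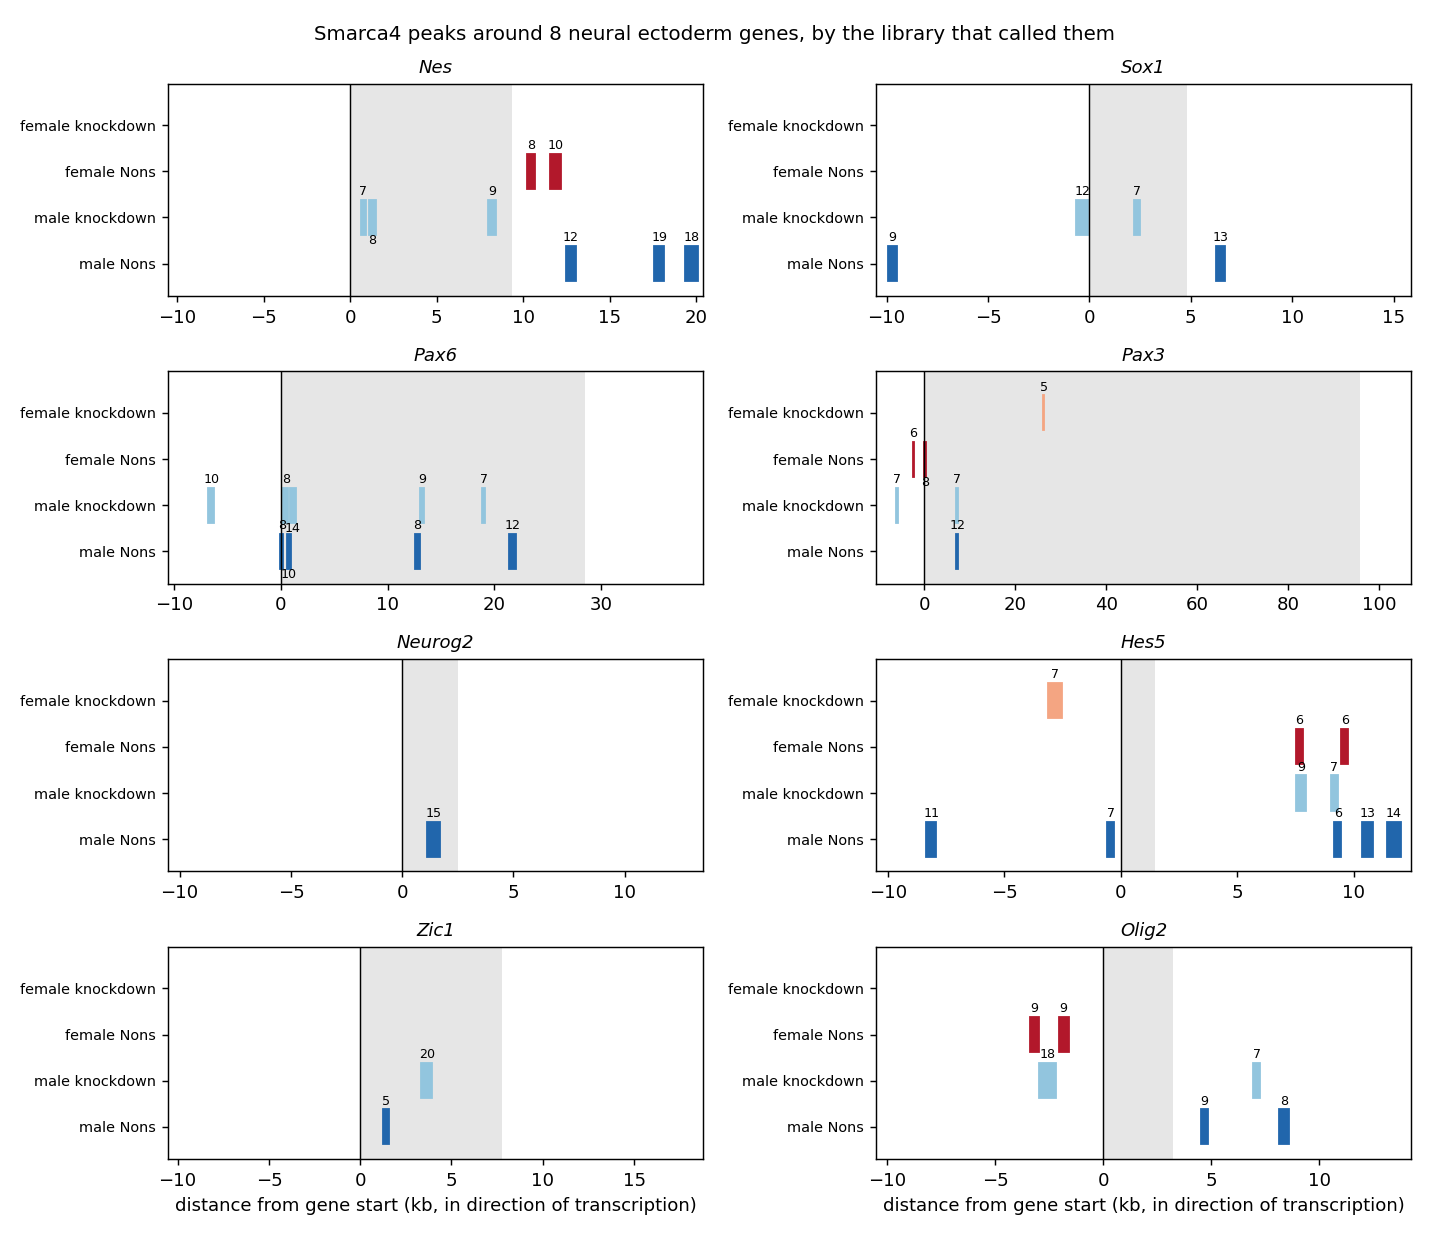
Position of each Smarca4 peak (bars, in kb from the gene start in the direction of transcription) around the 8 genes, in a row for each of the 4 libraries that called it, with the gene body in grey. Numbers are the reads of the peak in the library that called it (beneath the bar where labels would collide), from 5 at Pax3 and Zic1 to 20 at Zic1, and the female knockdown row holds 2 bars against 19 in the male Nons row.

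Since depth differed, the lists were also compared as if every library had the depth of the female knockdown and a peak needed 5 reads. The expected number of peaks around the 8 genes was then 2.00 in the female knockdown, 2.90 in female Nons, 5.88 in the male knockdown and 3.67 in male Nons. All 4 numbers lay within the counting interval of 2 peaks (0.242 to 7.22). Their order depended on the minimum, and with each list's own smallest read number in its place the expected numbers were 2.00 in the female knockdown, 1.37 in female Nons, 2.27 in the male knockdown and 15.1 in male Nons, whose list goes down to 2 reads. For all protein-coding windows the same calculation gave 1.62, 4.83, 2.81 and 3.23 peaks per Mb, with female Nons highest, and for the 8 genes 6.38, 9.24, 18.7 and 11.7 per Mb.

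Per Mb of window and at the listed depths, the 8 genes held 6.38 peaks in the female knockdown (0.773 to 23.0), 25.5 in female Nons (11 to 50.3), 54.2 in the male knockdown (31.6 to 86.8) and 60.6 in male Nons (36.5 to 94.7). The windows of the 8 genes had a median GC content of 49.0%, against 44.5% for all coding windows, so coding genes whose window length and GC content lay within the range of the 8 genes were set beside them. Those 11435 genes held 3.41, 28.2, 23.4 and 53.6 peaks per Mb in the same order of libraries, and 13.8%, 58.7%, 55.4% and 75.7% of them had a peak. Only in the male knockdown list did the density around the 8 genes have an interval that left out the density around genes of like length and GC.

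The same counts were made for 31 other neural genes and for 8 mesoderm and 8 endoderm genes. Of the other neural genes, 4 had a peak in the female knockdown, 13 in female Nons, 21 in the male knockdown and 25 in male Nons, with 4, 35, 51 and 85 peaks. The most peaks fell around Pax7, a paired-box factor of the dorsal neural tube (30), Six3, a forebrain factor (17), Pax2, a factor of the midbrain and hindbrain boundary (15), and Hes3, a relative of Hes5 (13). Among those with no peak in any list were Neurod1, a factor of neuronal differentiation, and Rax, a factor of the eye field. Mesoderm genes held 0, 1, 13 and 15 peaks and endoderm genes 0, 8, 12 and 20 peaks in the same order of libraries. The male knockdown density of mesoderm genes, 55.1 per Mb (29.3 to 94.2), was close to the 54.2 of the neural ectoderm genes, so a high density in that list was not particular to the neural genes.

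**Figure D2:**
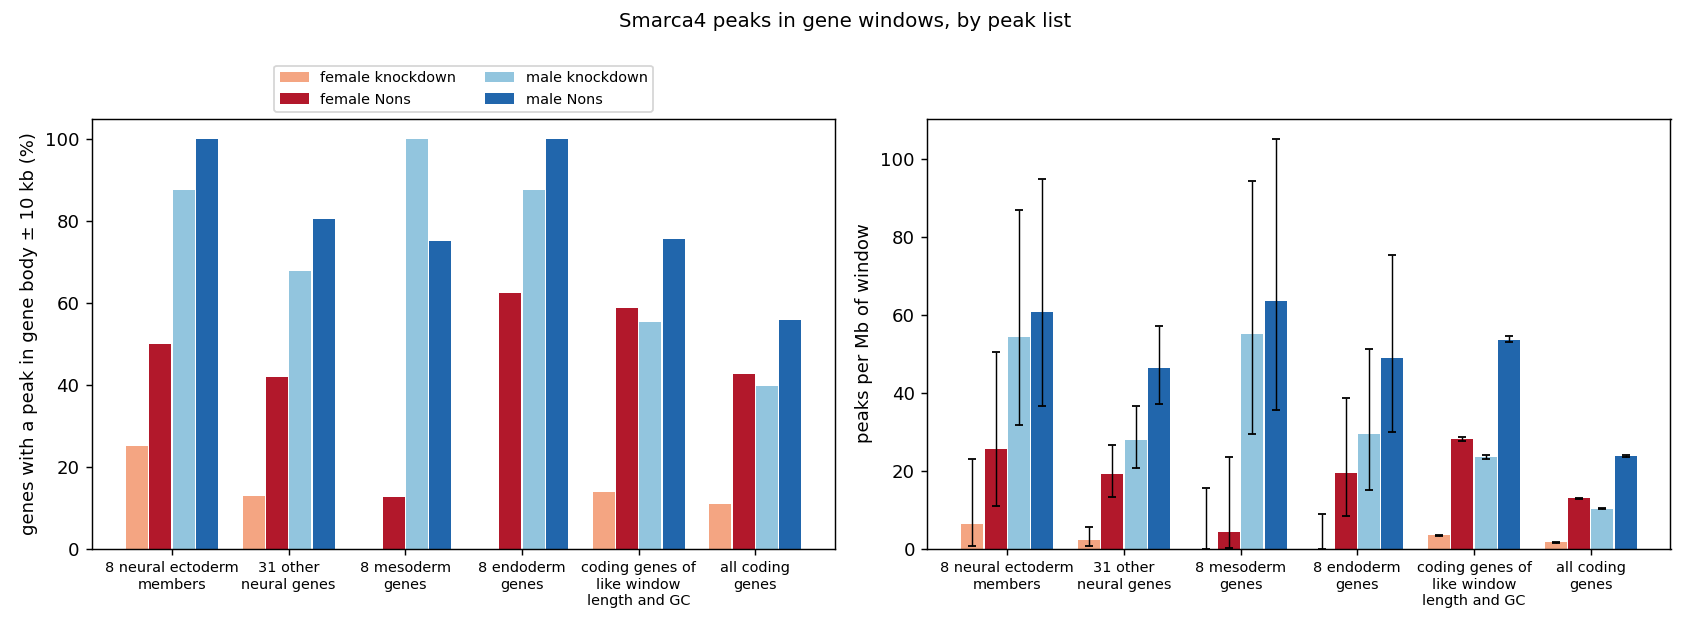
Share of genes with a peak in the gene body or 10 kb either side (left, %) and peaks per Mb of window (right, with exact Poisson 95% intervals) for the 8 neural ectoderm genes, the lists set beside them and all coding genes, with a bar for each peak list. Neural ectoderm genes reach 54.2 per Mb in the male knockdown list and 60.6 in male Nons, against 10.3 and 23.8 for all coding genes.

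Start sites carried a minority of the peaks. Within 1000 bp of a start site of the gene, the female knockdown list had a peak at 0 of the 8 genes, female Nons at 1 (Pax3), the male knockdown at 4 (Nes, Sox1, Pax6 and Zic1) and male Nons at 2 (Pax6 and Hes5). Across protein-coding genes the shares were 1.85%, 11.2%, 11.2% and 22.0%. Among genes of like window length and GC content they were 2.66%, 16.4%, 16.4% and 32.0%. Of the 46 peaks, 11 were at a start site, 9 upstream, 6 in introns, 4 over coding exons and 16 downstream of the gene. Pax6, which has 24 annotated start sites, held 6 of the 11. Neurog2 and Olig2 had no peak at a start site in any list. For 34 of the 46 peaks the nearest protein-coding start site was that of the neural gene, and the other 12 lay nearer to the start of a neighbour.

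The neural stem cell genes came first. Nes encodes the intermediate filament nestin of neural progenitors and lies on chr3:87971078-87980451 (plus strand). Female Nons called 2 peaks just past its end, the male knockdown 3 inside the gene, male Nons 3 further downstream and the female knockdown none. The start-site peak at chr3:87971701-87972000 had 2 reads in the female knockdown, 1 in female Nons, 7 in the male knockdown and 2 in male Nons, with 5 in the input. Scaled to depth this was 33.4 and 49.2 in the female and male knockdown libraries, against 8.60 and 9.17 in the Nons libraries of the same sex, on 1 to 7 reads. Only the male knockdown list called this region, so it was chosen for a high male knockdown value. The peaks with the most reads, at chr3:87988651-87989250 and chr3:87990451-87991200, lay over coding exons of Bcan, the gene of the proteoglycan brevican. There the male knockdown had 5 and 3 reads, against 19 and 18 in male Nons, and the female knockdown had 3 and 1, against 5 and 10 in female Nons, with 10 in the input at each. The peak at chr3:87990451-87991200 touches the Nes window with its first base only. It overlaps a female Nons peak that lies beyond the window. Over all 8 Nes regions the scaled sums were 167 in the female knockdown, 421 in female Nons, 274 in the male knockdown and 376 in male Nons. Nons lists called 5 of these 8 regions, so the sums are in part chosen for high Nons values.

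Sox1, a SoxB1 factor and one of the earliest markers of neural fate, lies on chr8:12395295-12400126 (plus strand). Only the male lists called peaks there, 2 each. The male knockdown peak at chr8:12394651-12395250, 0.34 kb upstream of the start, had 12 reads in the male knockdown and 8 in male Nons, with 2 in each female library and 8 in the input. The male Nons peak at chr8:12401551-12402000, past the end of the gene, had 7 reads in the male knockdown, 13 in male Nons, 4 in the female knockdown, 6 in female Nons and 9 in the input. In the library that called them, the 4 Sox1 peaks had a fold over input (the scaled value divided by input reads plus 1) between 5.96 and 9.84, at percentiles 18.2 to 41.0 of their lists. The peak 9.72 kb upstream lies within 1000 bp of a transcript start of Sox1ot, a non-coding RNA that spans Sox1.

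Pax6, the paired-box regulator of eye, forebrain and ventral spinal cord identity, lies on chr2:105668900-105697364 (plus strand) and has several start sites. It was called in male lists only, with 5 peaks in the male knockdown and 4 in male Nons, and 6 of the 9 were at a start site. The peak over the upstream start, chr2:105668851-105669150, had 0 reads in the female knockdown, 5 in female Nons, 5 in the male knockdown and 8 in male Nons, with 2 in the input. The next peak, chr2:105669151-105669600, had 0, 2, 8 and 9 reads in that order of libraries and 6 in the input. Both male libraries had reads over this stretch whether or not they called it, and the female knockdown had none.

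At the downstream Pax6 starts, the male Nons peak chr2:105681451-105681900 had 1, 0, 1 and 8 reads in the female knockdown, female Nons, the male knockdown and male Nons. The directly adjoining male knockdown peak, chr2:105681901-105682350, had 0, 2, 9 and 3. Each of the 2 peaks was chosen for a high value in the male library that called it, so no difference between the male libraries is read from them. Both peaks had 3 input reads, and the first holds the Sox match capitalised above. The peak with the most Pax6 reads, chr2:105669751-105670350, had 14 reads in the male knockdown, 7 in male Nons, 3 in the female knockdown, 1 in female Nons and 9 in the input. Over the 7 Pax6 regions the female knockdown had 4 reads and female Nons 16, the male knockdown 48 and male Nons 50.

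Pax3, the paired-box factor of the dorsal neural tube and neural crest, lies on chr1:78101267-78197134 (minus strand), and with Hes5 it was called in all 4 lists. Its start-site peak, chr1:78196801-78197250, was called in female Nons only. It had 1 read in the female knockdown and 8 in female Nons, 4 in the male knockdown and 9 in male Nons, and 1 in the input. Male Nons, the deepest library, thus had reads there without a call. The fold over input, 34.4, placed it at percentile 89.8 of the female Nons list. An intronic region 7.23 kb into the gene was called in both male lists, with 12 reads in the male knockdown and 12 in male Nons over chr1:78189601-78190200, with 1 in the female knockdown, 4 in female Nons and 4 in the input. The female knockdown peak, chr1:78170701-78171000 in an intron, had 5 reads there, the smallest number that list holds, against 0 in female Nons.

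Zic1, a zinc finger factor of the neural plate and dorsal neural tube, lies on chr9:91358058-91365810 (minus strand) and overlaps Zic4 on the other strand. The male knockdown peak chr9:91361851-91362450 held more reads than any other of the 46 peaks, with 20 in the male knockdown and 9 in male Nons, 0 in the female knockdown and 6 in female Nons, and 8 in the input. This peak also lies within 1000 bp of a transcript start of Zic4, and the nearest coding start was not that of Zic1. The male Nons peak chr9:91364251-91364550, over a coding exon, had 5 reads each in the male knockdown and male Nons, 0 in the female knockdown, 3 in female Nons and 1 in the input. The female knockdown had no read in either Zic1 region, against 9 in female Nons. The upper end of the interval of the scaled ratio was 0.984, with no adjustment for the number of genes. Over all coding windows the female ratio of knockdown over Nons was 0.66, and the Zic1 bound depends on how depth was set.

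Of the basic helix-loop-helix genes, Neurog2, a proneural factor that drives neurons out of the cell cycle, lies on chr3:127633135-127635631 (plus strand). Its single peak, chr3:127634251-127634850 over the coding exon, was called in male Nons only. It had 0 reads in the female knockdown and 3 in female Nons, 5 in the male knockdown and 15 in male Nons, and 8 in the input. The scaled value was 35.1 in the male knockdown, against 68.8 in male Nons, the highest of the 4 libraries. Male Nons alone called this region, so the region was chosen for a high male Nons value.

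Olig2, which specifies motor neurons and oligodendrocytes, lies on chr16:91225457-91228677 (plus strand). Its peaks lay upstream of the start or past the end. Female Nons called chr16:91222051-91222500 and chr16:91223401-91223850, with 9 reads each, and the male knockdown called the stretch between them, chr16:91222501-91223250, with 18. In that stretch the female knockdown had 1 read and female Nons 3, male Nons had 4 and the input 6. The 3 peaks form a cluster 1.83 to 3.18 kb upstream that 2 lists called, and each lies within 1000 bp of a transcript start of the non-coding gene Gm49614. Male Nons called chr16:91230001-91230300, 4.69 kb past the start, where the other 3 ChIP libraries had 0 reads, male Nons 9 and the input 1. Each of these Olig2 regions was chosen for a high value in the library that called it.

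Hes5, the Notch target that represses neuronal differentiation, lies on chr4:154960923-154962371 (plus strand). Its upstream peak, chr4:154960351-154960650, was called in male Nons only. It had 0 reads in the male knockdown and 7 in male Nons, 1 in the female knockdown and 0 in female Nons, and 0 in the input. The fold over input of 32.1 was at percentile 96.1 of the male Nons list. The female knockdown peak, chr4:154957801-154958400, had 7 reads against 3 in female Nons, but 10 in the input, which put it at percentile 4.39 of its list. The order by reads alone was the opposite, with the upstream male Nons peak at percentile 18.9 and the female knockdown peak at 84.6 of their lists, so these ranks follow the input reads.

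Further along, 7 of the 10 Hes5 peaks lay within Pank4, the neighbouring gene, which encodes a pantothenate kinase family member, and the nearest coding start was not that of Hes5. The region at chr4:154968451-154968750 was called in female Nons and, extended to 154968900, in the male knockdown. It had 0 reads in the female knockdown and 6 in female Nons, 9 in the male knockdown and 2 in male Nons, and 0 in the input. Its folds over input, 51.6 and 63.2, stood at percentile 94.9 of the female Nons list and 99.2 of the male knockdown list, and all 3 peaks at 0 input reads, the male Nons peak upstream of Hes5 among them, rank highest by fold. By their own reads the 2 calls stood at percentiles 14.4 and 68.6. The stretch from 154969951 to 154970700, whose pieces lie within 1000 bp of a transcript start of Pank4, was called in pieces by the male knockdown, male Nons and female Nons. This is the place around the 8 genes where the most lists met, and the female knockdown had 0 reads in each piece.

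**Figure D3:**
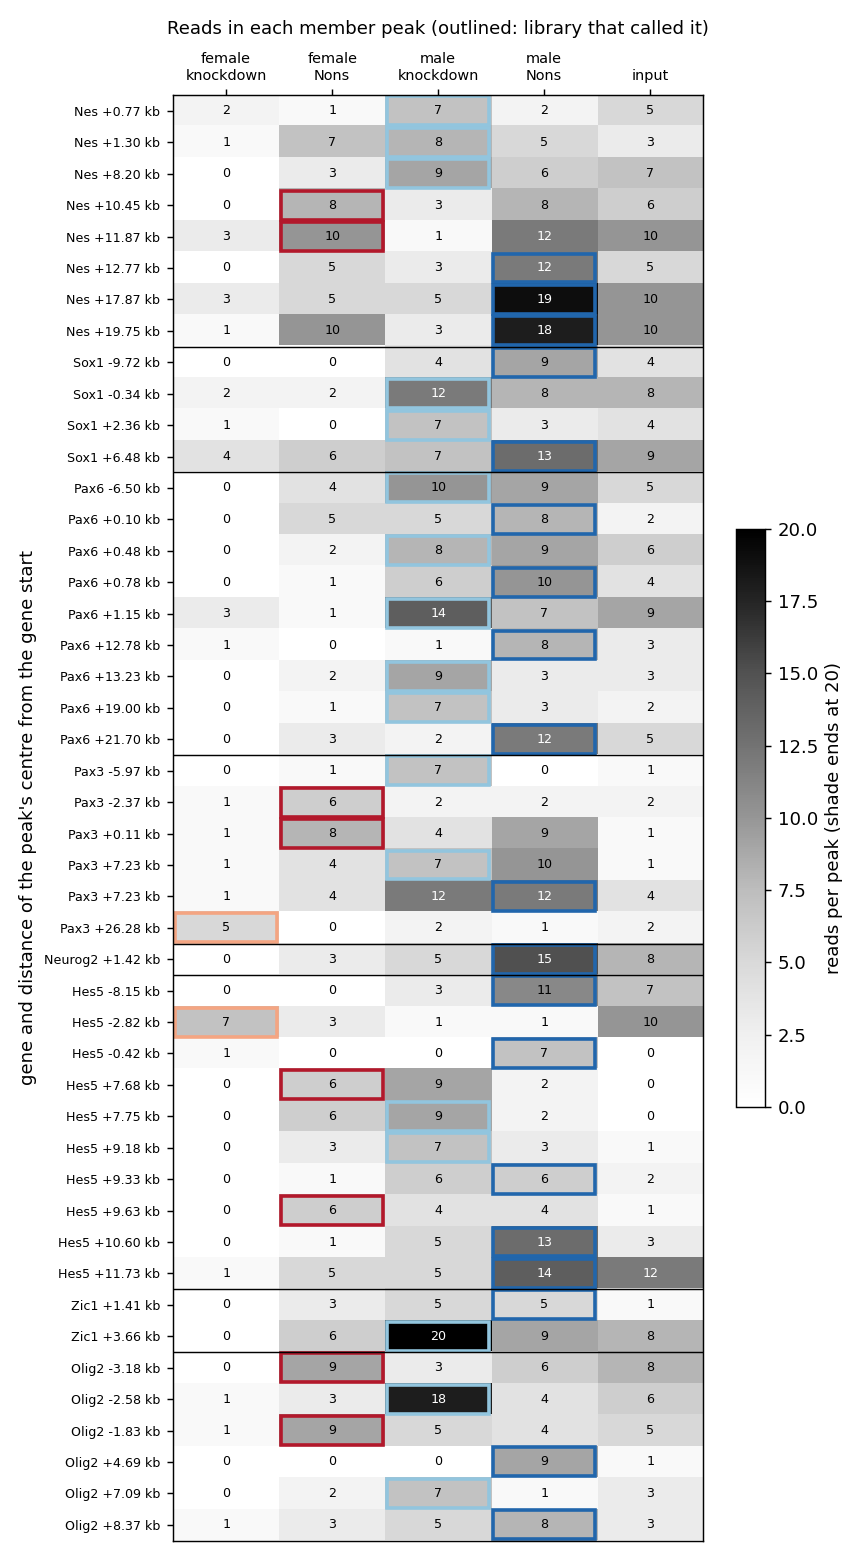
Reads of the 4 ChIP libraries and the input (columns) in each of the 46 peaks (rows, named by gene and by distance of the peak's centre from the gene start in kb), with grey shade for the number of reads and a coloured outline on the library that called the peak. Numbers run from 0 to 20, and the female knockdown column reaches at most 7.

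Of the 46 peaks, 10 (21.7%) overlapped a peak of another list by 1 bp or more, against 18.1% of the peaks in all coding windows, and 23 (50%) had a peak of another list within 1000 bp, against 36.3% of those in coding windows, so sharing was near or above that of other window peaks. Neither peak of the female knockdown overlapped another list. Median reads in the calling library were 6 in the female knockdown, 8 in female Nons, 8 in the male knockdown and 11 in male Nons, and the input had a median of 4 reads and at most 12. By fold over input the 46 peaks sat in the middle of their lists, with a median percentile of 48.4.

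In sequence, the peaks around neural ectoderm genes held more CpG than Smarca4 peaks in general. The median ratio of observed to expected CpG in the central 300 bases was 0.495, against 0.253 for all peaks in coding windows, and the ratio was at or above 0.6 in 17 of 46 peaks against 5.16% of all peaks. GC content had a median of 57.3%, against 55.3% in coding windows. The GC box was in 11 of 46 peaks (23.9%), against 11.4%. The Sox motif (8.70% against 10.4%), the Rbpj motif (8.70% against 8.22%) and the E box CANNTG (76.1% against 84.4%) had shares near or below those of the other window peaks, and the octamer was in none (0.540% of window peaks). The 46 peaks share windows and in part the same bases, so these shares are descriptions. No such values were taken for peaks of the mesoderm, endoderm or other neural genes. A high CpG content is therefore not shown to be particular to the neural ectoderm genes.

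In RefSeq, promoter windows of 300 bases (GRCm38.p6) were found for 7 of the 8 genes, with 2 windows for Pax6 and none for Pax3. Only those of Pax6 were overlapped by a peak, the upstream window in male Nons and the downstream window in the male knockdown. The Hes5 window held 2 matches to the Rbpj motif, which 6.38% of all 32851 promoter windows hold. The Sox1 window held an octamer match, as did 1.74% of all windows, and 5 of the 7 genes had a GC box, as did 35.7%.

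Reads were then compared between libraries, as sums over regions called in lists other than those compared, because a region is called where its own library is high. Regions that a compared library had called as well were kept in these sums. The values of the 8 genes without those that it called inside the windows are given beside. Overlapping peaks were joined, which left 41 regions. In the 32 regions called in male lists, the female knockdown had 23 reads and female Nons 93. Scaled to depth this was a ratio of 0.48 for knockdown over Nons (exact conditional interval 0.29 to 0.765). The knockdown value was the lower in 21 regions (65.6%), the higher in 8 and tied in 3. In coding windows the knockdown was the lower in 67.2% of regions and the higher in 26.6%. The split of regions was therefore not particular to the neural ectoderm genes. Over all coding windows the ratio was 0.66 (0.653 to 0.668), which lies within the interval of the neural genes. Without the 1 region that a female list also called inside the windows, it was 0.513 (0.309 to 0.821), against 0.693 (0.684 to 0.702) over coding windows. The value 0.513 still holds the Nes region chr3:87990451-87991200, which a female Nons peak beyond the window overlaps. That region had 1 read in the female knockdown and 10 in female Nons. The ratio of the neural genes depended on how depth was set, and with depth taken from summed reads of all autosomal regions it was 0.935 (0.565 to 1.49).

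In males the knockdown had 34 reads and Nons 49 in the 10 regions called in female lists. The ratio was 1.06 (0.666 to 1.68), with the knockdown the higher in 6 regions and the lower in 4, against 0.989 (0.979 to 0.999) over all coding windows. In coding windows the knockdown was the higher in 48.9% of regions and the lower in 50.2%, against 60.0% and 40.0% here. The male ratio had no stable side of 1, at 0.815 (0.481 to 1.35) without the 1 region that a male list also called, 0.975 with 2 kb windows and 0.907 with 50 kb windows. Between the Nons libraries, female Nons had 51 reads and male Nons 86 in the 19 regions that knockdown lists called. The ratio for female over male was 1.11 (0.771 to 1.59), and over all coding windows it was 1.11 (1.10 to 1.13). In the 14 regions that no Nons list called it was 1.19 (0.758 to 1.86). Neither interval of the neural genes left out 1, and the counts are too few to bound a difference closely.

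**Figure D4:**
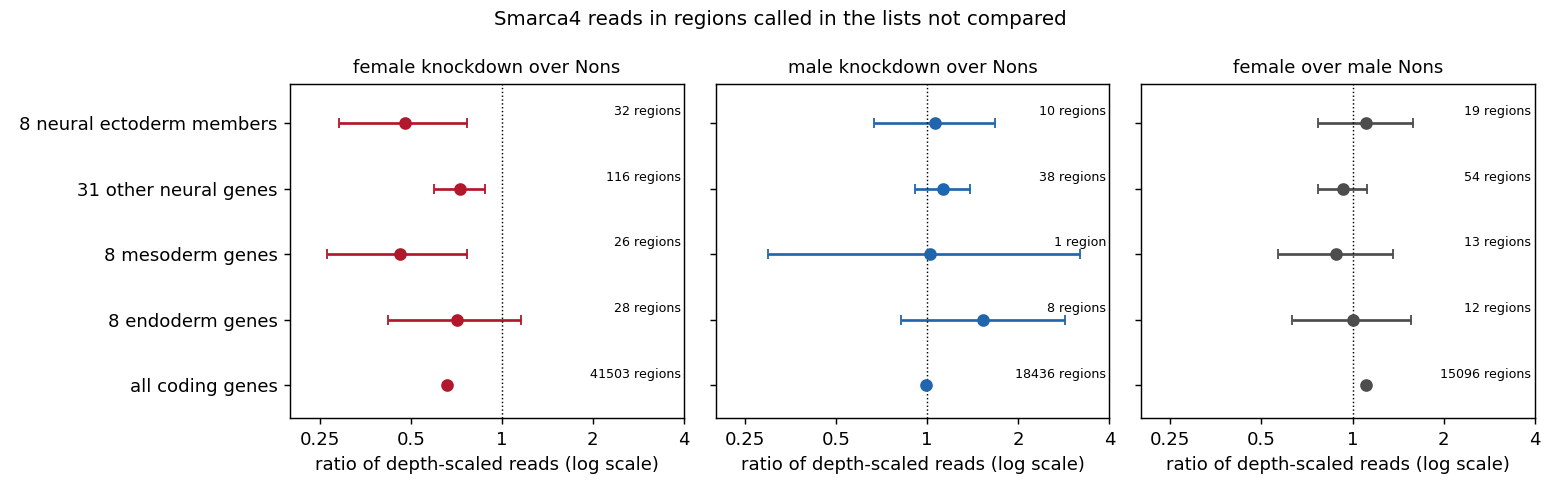
Ratio of depth-scaled reads (log axis) for female knockdown over Nons, male knockdown over Nons and female over male Nons, with exact conditional 95% intervals, summed over regions called in the lists not compared, those that a compared list also called included. For the 8 neural ectoderm genes the points lie at 0.48, 1.06 and 1.11, beside 0.66, 0.989 and 1.11 for all coding genes.

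Other lists had ratios of the same kind. For female knockdown over Nons, the 31 other neural genes had 0.727 (0.597 to 0.881), mesoderm genes 0.461 (0.264 to 0.768) and endoderm genes 0.709 (0.42 to 1.16). For male knockdown over Nons they had 1.13 (0.911 to 1.39), 1.02 (0.299 to 3.21, from 1 region) and 1.53 (0.822 to 2.86). The intervals of the neural ectoderm genes overlapped all of these.

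By gene, the female ratio of knockdown over Nons was below 1 at 7 of the 8 genes and 1.70 at Sox1 (0.525 to 5.36), where 7 reads in the knockdown stood against 8 in Nons. Summed over all coding windows that ratio was below 1 as well (0.66), with the knockdown the lower in 67.2% of regions. The share of all coding genes below 1 was not counted, so the 7 of 8 is not read as a trait of these genes. The side of 1 also depends on how depth was set. With depth from summed autosomal reads the female ratio of the 8 genes together was 0.935. At Nes the female ratio was 0.439 (0.163 to 1.02) and at Pax6 0.485 (0.118 to 1.5). Neurog2 had 0 reads in the knockdown against 3 in Nons. In males only Nes, Pax3, Hes5 and Olig2 had regions called in female lists. Nes had 4 reads in the male knockdown against 20 in male Nons, a ratio of 0.306 (0.0762 to 0.915), with no adjustment for the number of genes. Hes5 had 14 against 7, a ratio of 3.06, but 9 of the 14 reads came from the region that the male knockdown itself had called. Without it the 2 libraries had 5 reads each and the ratio was 1.53 (0.353 to 6.66), so no male difference at Hes5 was detectable at this depth.

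Each region was also tested across all 65911 regions with edgeR's quasi-likelihood test in a fit of sex plus hairpin. No region passed a Benjamini-Hochberg adjusted p of 0.05 for knockdown against Nons (0.0%) or for female against male (0.0%), and none of the 37 neural ectoderm regions tested did. At an unadjusted p under 0.05 there were 294 and 307 regions in all, with 0 of the 37 in either comparison, and DESeq2 called 0 regions and had 326 and 309 at that p, with 0 and 1 of the 37. Among the 37 regions the fitted log2 fold change of knockdown over Nons was positive in 16 and negative in 21, with a median of -0.40 against -0.66 over all regions. For female over male it was positive in 11 and negative in 26, with a median of -0.94 against -0.38. The split of signs over all regions was not counted. Male lists called 32 of the 41 neural ectoderm regions, so the female over male values are in part chosen for high male reads. In regions that knockdown lists called, the ratio of female over male Nons was 1.11, as over all coding windows. Regions enter this fit because a library called them, and 1 degree of freedom was left for error.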

How the data were processed

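The data were 4 Smarca4 peak lists, with 1 ChIP library per group and 1 input library, grouped by sample title. Per the study's methods, the authors trimmed single-end reads (trim_galore), mapped them to mm10 (bowtie2), dropped duplicates and called peaks against the input in Seqmonk. A reporting form names tophat in place of bowtie2, so the aligner is uncertain. The submitters' processing notes name bcl2fastq, Bowtie2, MACS2 and mm10. The deposited ChIP values are a signal per region scaled by the authors to the depth of the input, and the deposited input values are counts of reads. ChIP reads were recovered as whole multiples of 1 step per library, which held for 100% of values within 0.01 reads.

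Gene windows came from GENCODE vM21, and peak ends lay within GRCm38 chromosomes. The members and gene lists were chosen with earlier results of these data known. Text names every member, its start-site peaks and up to 3 other peaks with the most reads per gene, with further peaks picked after their values were seen. Peak numbers have exact Poisson intervals and read ratios exact conditional (Clopper-Pearson) intervals, at 95%, with no p since each group is 1 library. Where several peaks overlapped, the widest stood for the region. Recovered reads were tested in R 4.3.3 with edgeR 4.0.16 (glmQLFit, glmQLFTest; library sizes in the ratio of depths), over regions under 50 input reads with 10 or more reads in all, both limits set after the data were seen, and the script was tested on simulated data. Alternatives were windows of 2 and 50 kb, the 50% of peaks with the highest fold over input, leaving out peaks of 20 or more input reads, thinning to the shallowest library, the nearest start site, other regions and depths, TMM, no filter, and DESeq2 1.42.0. Library totals were not used here, and the lists were used without any fold, p or q of the caller.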

Additional observations from a re-analysis of the deposited data

Results flagged for a closer look

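Point ratios of knockdown over Nons lay below 1 in females and above 1 in males for the 8 genes together and for Pax3, Hes5 and Olig2. The difference between the sexes was not tested, since each group is 1 library, and a male direction is not shown, since the male values include 1 in their intervals or lose their distance from it under another choice of regions. For the 8 genes the ratio of depth-scaled reads was 0.48 in females and 1.06 in males, where it was 0.815 without the region that a male list also called. Pax3 had 0.388 in females (interval 0.00821 to 3.47) and 1.02 in males (0.362 to 2.72). At Hes5 the female ratio was 0.299 (0.0327 to 1.32) and the male ratio 3.06 (1.16 to 8.97). Without regions that a compared list also called, these were 0.555 (0.0562 to 2.91) and 1.53 (0.353 to 6.66). Olig2 had 0.485 in females (0.0502 to 2.43) and 1.23 in males (0.42 to 3.45). Male and female ratios rest on different regions, since each was taken where the other sex's lists called peaks.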

How the results depend on the processing

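The 13 results were recomputed under 80 alternatives in all, of which 53 were labelled the same and 27 moved. A gene or peak number was the same if it stayed within a set fold of the main value. A ratio was the same if it stayed within the main interval, also where it crossed 1. Region calls were the same if their number was equal. No result changed its call in the region test, which gave 0 calls with TMM, without the filter and with DESeq2. The ratio for female knockdown over Nons moved to 0.935 with depth from summed autosomal reads, which weight the regions that each library's own list added, and within 2 kb of the genes it was 0.661 (0.35 to 1.19). The male ratio was 0.815, 0.975 and 0.907 without regions of male lists, at 2 kb and at 50 kb. Over all 41 regions, called in any list, it was 1.22 (1.03 to 1.45). With 2 kb windows the female knockdown kept 1 gene, and peaks numbered 1 in the female knockdown, 3 in female Nons, 11 in the male knockdown and 10 in male Nons. With 50 kb they numbered 4, 21, 29 and 50. Among the 50% of peaks with the highest fold, genes with a peak were 1 in the female knockdown and 2 in female Nons, and peaks were 1, 4, 9 and 12 in the order above. By nearest start site, female Nons kept 5 peaks. Thinned to the depth of the female knockdown with each list's own minimum, the expected genes were 1.22 in female Nons, 2.22 in the male knockdown and 7.15 in male Nons, and peaks 1.37, 2.27 and 15.1. With a minimum of 5 reads, chosen after the data were seen, they were 2.28 genes in female Nons, 4.64 in the male knockdown and 2.87 in male Nons, with 2.90, 5.88 and 3.67 peaks. With 1 library per group no replicate could be left out. No paired analysis was possible because each group has 1 library and the labels carry no replicate numbers. Depth limits all of these values: the female knockdown, at 5.99% of the input's depth, needed 5 reads for a peak, so a gene without a peak there is not shown to be unbound.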
